A study of Mus musculus with 4 samples.

Results

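Deposited cluster 32 is a group of 170 cells, of 45936 in the series, that the authors' annotation places in its alveolar type 2 (AT2) class. Its members are all cells with that class label and that cluster number, 82 and 25 in control libraries 1 and 2 and 21 and 42 in YAP/TAZ KD libraries 1 and 2. The cells came from mouse alveolospheres, in which wildtype AT2 cells, selected as LysoTracker+, grew with PDGFRα+ lung fibroblasts in MTEC/Plus medium. The fibroblasts share the libraries with the epithelial cells. Control cultures had the genotype wildtype. The YAP/TAZ KD cultures combined wildtype AT2 cells with a PDGFRa-specific knockdown of YAP and TAZ, so by the labels the epithelial cells were wildtype in both groups. All 4 libraries had 3 µg/ml doxycycline, dissolved in DMSO, in the medium from day 7 to collection on day 14 and carry 1 batch label. The labels name 2 biological replicates per group and do not say whether animals or cultures were separate. The p-values therefore take only the differences among the 4 libraries as error, which may be technical.

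Airway secretory cells line the conducting airways and release secretoglobins (Scgb1a1, Scgb3a1), the antimicrobial protein Bpifa1 and the mucin Muc5b. AT2 cells make surfactant (Sftpc, Sftpa1, Sftpb) and can become alveolar type 1 (AT1) cells, which form the gas exchange surface, through keratin-rich transitional states. YAP and TAZ are transcriptional co-activators that act through TEAD factors on target genes such as Ccn1, Ccn2 and Ankrd1.

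Cluster 32 gave 592000 and 210255 UMIs (unique molecular identifiers, 1 per captured transcript) in the control libraries and 241303 and 486100 in the knockdown libraries. The median cell held 5984.5 and 7835 UMIs in the controls and 10596 and 10833.5 in the knockdowns, against 3614 to 6163 in clusters 9 and 14 over all libraries. The median mitochondrial share was 18.7% and 16.9% in control cells of cluster 32 and 29.9% and 26.0% in its knockdown cells. It was 14.0% to 21.7% in clusters 9 and 14. Median deposited doublet enrichment was 0.263 and 0.1625 in control cells of cluster 32 and 1.0 and 0.343 in its knockdown cells. Clusters 9 and 14 had 0.0421 to 0.314, and 8 and 9 knockdown cells of cluster 32 lacked a value. Cells above 1.2375, the cut used below, numbered 15 of 82, 2 of 25, 3 of 21 and 3 of 42 in cluster 32. In cluster 9 they numbered 12 of 488, 5 of 492, 28 of 892 and 11 of 227. Whether cells with mixed markers were doublets was not tested. Of the 170 cell barcodes, 6 also occurred in another library, none of them in cluster 32 there. Levels below are CPM, the UMI counts of a gene summed over a cluster's cells in a library and scaled to the same total in every sum. The part of the cells' mitochondrial share in the results was not tested.

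Airway markers were present in the sums of the control libraries and of knockdown library 2, and nearly absent from knockdown library 1. The 14 airway secretory markers summed to 12807 and 11743 CPM in the controls, to 99.5 CPM in knockdown library 1 and to 8550 CPM in knockdown library 2. In knockdown library 1, 11 of the 14 were at 0. Scgb3a1 (chromosome 11, 49663610 to 49665118, plus strand, GRCm38) read 5105 and 1308 CPM in the control libraries, against 0 and 1719.8 CPM with the knockdown, so the groups overlapped. Scgb1a1, the classical club cell secretoglobin, read only 196 and 28.5 CPM in the control libraries, against 53.9 and 4205 CPM with the knockdown. Bpifa1 read 728 and 133 CPM and 0 and 1563 CPM in the same order, and Muc5b 324 and 195 CPM and 0 and 146 CPM. The data thus go against the name airway-like for knockdown library 1. The cluster is called by its number here, and its control and knockdown cells are described apart.

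Markers of other cell types were low. The 12 ciliated markers summed to between 6.17 and 30.4 CPM over the 4 libraries, with 8 to 10 of them at 0, and the endothelial list summed to at most 2.06 CPM. Immune markers summed to between 4.76 and 28.7 CPM and ionocyte markers to between 0 and 6.17 CPM. Fibroblast markers summed to between 477 and 1216 CPM, against 392 to 876 CPM in cluster 9 and 6325 to 7933 CPM in the fibroblasts. The AT2 list of 15 markers summed to 15819 to 19643 CPM in cluster 32, below the 77219.9 to 113619.6 CPM of cluster 9 and near the 12572 to 26509 CPM of cluster 14. The Sftpc sums read 11390.2 and 11201 CPM in control and 11960.1 and 8122 CPM in knockdown cells, above the 715 to 1859 CPM found in fibroblasts. These sums hide a spread over cells. The median control cell held 8.61 and 5.41 Sftpc UMIs per 10000 of its UMIs, and the median knockdown cell 38.7 and 21.6. Only 34 of 82 and 8 of 25 control cells held 10 or more Sftpc UMIs. Neuroendocrine markers summed to between 3.38 and 78.7 CPM, the highest in knockdown library 1.

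The plot of levels by cluster and library sets the control and knockdown cells of cluster 32 beside clusters 9 (AT2 cells) and 14 (deposited as AT2, led by AT1 genes).

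**Figure D1:**
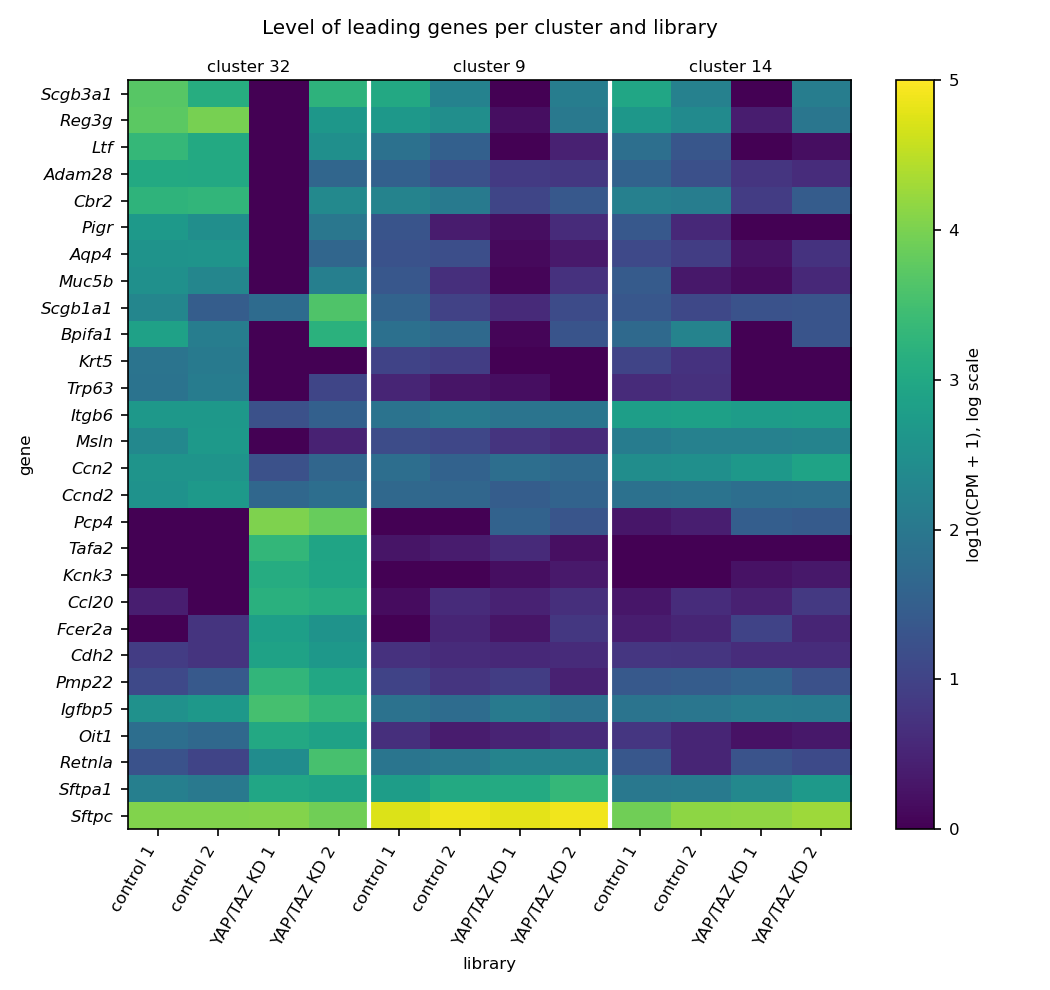
Levels as log10(CPM + 1) of 28 genes (rows) in the summed cells of clusters 32, 9 and 14 of each library (columns). Reg3g is bright in the control columns of cluster 32 and dark in knockdown library 1, and Pcp4 is bright only in the knockdown columns of cluster 32.

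Control cells of cluster 32 carried secretory and mucosal defence transcripts at levels far over those of clusters 9 and 14 in the same libraries. Of 1462 genes at 100 CPM or more in both control libraries, 60 were at least 2-fold over the highest value of clusters 9 and 14, on CPM + 10, and 5 at least 10-fold. These are descriptions with no test, since the clusters were made from these genes. Reg3g, an antimicrobial C-type lectin (chromosome 6, 78466269 to 78468872, minus strand), read 5559 and 9555 CPM in the control cells, against 465 and 299 CPM in cluster 9 and 445 and 247 CPM in cluster 14. Ltf, which encodes the iron-binding defence protein lactoferrin, read 2132 and 1113 CPM against 72.2 and 33.0 and 67.1 and 21.3 CPM in the same order. In both libraries the cluster 32 value was the highest of the 3 clusters. Adam28, a membrane metalloprotease, read 1081 and 1037 CPM against 33.8 and 15.8 CPM in cluster 9. The carbonyl reductase Cbr2, abundant in airway cells, read 1770.3 and 1945 CPM against 168 and 112 CPM, and ceruloplasmin (Cp), a copper-carrying ferroxidase, 1422 and 1170.0 CPM against 98.2 and 71.9 CPM. Pigr, the receptor that carries IgA across epithelia, read 515 and 299.6 CPM, the water channel gene Aqp4 361 and 385 CPM and the disulfide isomerase Agr2 of mucin-making cells 225 and 157 CPM, each with at most 22.5 CPM in clusters 9 and 14 of those libraries.

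Part of this signal also lay outside the cluster. After each cell was thinned to 1000 UMIs, 81.7% and 40% of the control cells held a UMI of Scgb3a1, against 72.8% and 19.7% of the cells of the Fibroblasts class, which should lack it. Unthinned values in cluster 32 were 98.8% and 80.0%, at median depths of 5984.5 and 7835 UMIs. The share in control library 1 (95% exact binomial interval 71.6% to 89.4%, counting error only) thus lay close to that background. For Reg3g the shares were 67.1% and 68.0% against 45.9% and 31.3% in fibroblasts, whose median depth was 3223 and 3420.0 UMIs in these libraries. For Ltf they were 54.9% and 52.0% against 6.45% and 1.42%, and for Adam28 48.8% and 40% against 2.49% and 0.828%. Shares of Ltf and Adam28 in cluster 32 thus stood far above those in fibroblasts. Cells with 10 or more Reg3g UMIs numbered 187 and 63 in the 2 control libraries, 39 and 17 of them in cluster 32.

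Basal cell genes, which mark the stem cells of the conducting airway, were present at low levels in control cells. Krt5 read 81.1 and 109 CPM, Trp63 77.7 and 124 CPM, Krt15 57.4 and 85.6 CPM and Krt14 35.5 and 57.1 CPM in the control libraries, and the 7 basal markers summed to 311 and 442 CPM against at most 30.2 CPM in clusters 9 and 14. In thinned control cells of library 1, 6 held UMIs of both Reg3g and a basal gene (Krt5, Krt14, Krt15 or Trp63), 11 of a basal gene alone, 49 of Reg3g alone and 16 of neither, of 82. The corresponding counts in control library 2 were 2, 4, 15 and 4 of 25. Fibroblasts also held Reg3g, so its UMIs alone do not mark a cell here.

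Transitional genes of control cells stood nearer to cluster 14 than to cluster 9, while AT1 genes were lower than in cluster 14. Krt8 read 1145 and 1369.8 CPM, with 472 and 497 CPM in cluster 9 and 997 and 1568 CPM in cluster 14. Krt19 read 598 and 908 CPM against 421 and 717 CPM in cluster 14, and Itgb6, the epithelial integrin that activates TGF-β, 468 and 466 CPM against 641 and 679 CPM. Ager, the receptor that is a leading AT1 marker, stood lower, at 292 and 162 CPM against 1023 and 1701 CPM. Ccnd2, a D-type cyclin, read 356 and 495 CPM, against 48.0 and 43.9 CPM in cluster 9 and 71.7 and 77.8 CPM in cluster 14.

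Knockdown cells of cluster 32 were marked by another set of genes. Of 1100 genes at 100 CPM or more in both knockdown libraries, 57 were at least 2-fold over clusters 9 and 14 and 18 at least 10-fold. Pcp4, a small calmodulin-binding protein known from Purkinje cells (chromosome 16, 96467606 to 96525793, plus strand), read 10588 and 6826 CPM and stood at 0 UMIs in both control libraries of the cluster. Its highest value in clusters 9 and 14 of the knockdown libraries was 37.2 CPM. Kcnk3, a two-pore potassium channel, read 1227 and 880.5 CPM and Tafa2, a secreted chemokine-like protein, 2026 and 827 CPM, both at 0 in control cells of the cluster. The chemokine gene Ccl20, which draws CCR6-bearing immune cells (chromosome 1, 83116766 to 83119167, plus strand), read 1525 and 1271 CPM, with 2.01 and 3.66 CPM in cluster 9.

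N-cadherin (Cdh2) read 767 and 465 CPM in the knockdown cells and 2.75 and 3.05 CPM in cluster 9. The myelin protein gene Pmp22 read 1923 and 1014 CPM, against 7.14 and 1.83 CPM, and Igfbp5, a binding protein of insulin-like growth factors, 3402 and 2088 CPM, against 114 and 76.3 CPM. Oit1 read 1053 and 776 CPM, Smim31 460.0 and 393 CPM and Fcer2a, the low-affinity IgE receptor, 663 and 370.3 CPM. Both knockdown libraries carried all of these genes, and both lay above both control libraries.

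Pcp4 was seen in most knockdown cells of the cluster. After thinning, 85.7% (95% exact binomial interval 63.7% to 97.0%) and 54.8% (38.7% to 70.2%) of the knockdown cells held a Pcp4 UMI, against 4.54% and 3.34% of fibroblasts. Unthinned, the shares were 90.5% and 73.8% in cluster 32 and 19.9% and 20.2% in fibroblasts. No control cell of the cluster did. Taking 3 cells of the total as the limit of a count of 0, this allows shares of cells with a UMI of up to 3.66% and 12% (exact binomial limits 4.40% and 13.7%). Over all clusters, 23 and 22 cells of the knockdown libraries held 10 or more Pcp4 UMIs, and 19 and 21 of them were in cluster 32. No cell of either control library did. Kcnk3 was co-detected with Pcp4 in 13 thinned cells of each knockdown library and seen without it in 0 and 1. Ccl20 was less evenly spread, with 84.5% and 96.6% of its UMIs in the 5 highest cells of each knockdown library.

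Knockdown library 2 held a further set of cells with airway transcripts. Its 42 cells gave 2044 Scgb1a1 UMIs, 98.8% of them in 5 cells, with 730 in the highest. After thinning, 21 of its cells held Pcp4 without Scgb1a1, Bpifa1 or Muc5b, 9 held 1 or more of these 3 without Pcp4, 2 held both and 10 neither. The airway transcripts and Pcp4 thus lay mostly in different cells. Retnla, a resistin-like secreted protein, read 274 and 3497 CPM and was co-detected with Scgb1a1 in 6 thinned cells of library 2, and with Pcp4 in 10. In knockdown library 1, 1 cell held 13 Scgb1a1 UMIs and the other 20 held none. Both counts rest on few cells.

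**Figure D2:**
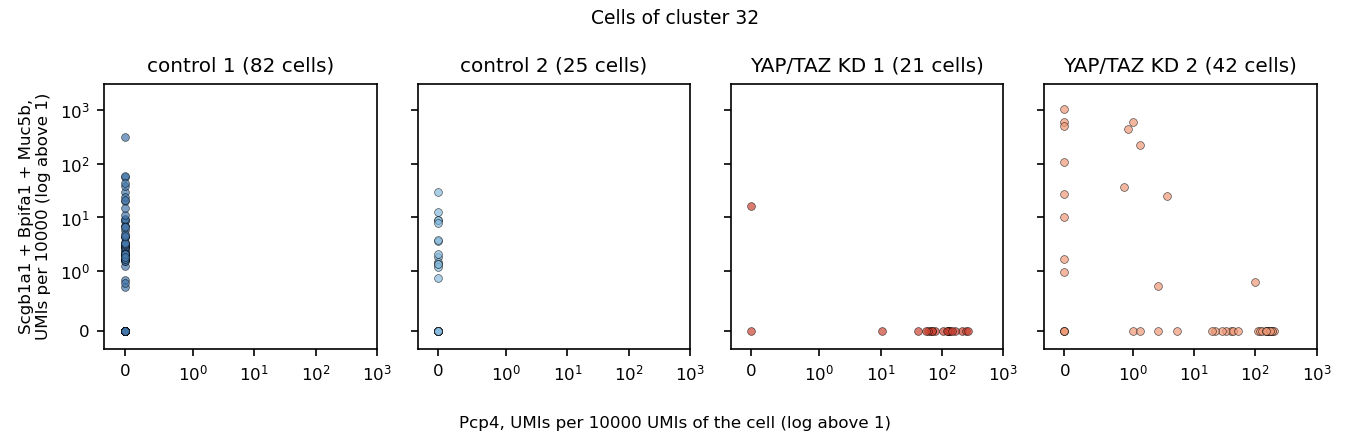
Each point is 1 cell of cluster 32, with the UMIs of Pcp4 (x) and of Scgb1a1, Bpifa1 and Muc5b together (y) per 10000 UMIs of that cell, on axes that are logarithmic above 1. Control cells lie on the left edge, all but 1 cell of knockdown library 1 along the bottom, and knockdown library 2 has cells in both places.

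Control and knockdown cells of the cluster also resembled different clusters. The Pearson correlation across 8625 genes of log2(CPM + 10) was highest with cluster 14 for control sums (0.911 and 0.861) and with cluster 9 for knockdown sums (0.806 and 0.855), among the other clusters of the same library. For the control sums, cluster 2 (deposited as transitional epithelial cells) came next, at 0.894 and 0.860, so that in control library 2 clusters 14 and 2 were nearly tied. With an offset of 1 CPM in place of 10, cluster 2 came first in control library 2, at 0.806 against 0.804. Between the 2 controls of cluster 32 it was 0.905 and between its 2 knockdowns 0.883, while control against knockdown gave 0.674 to 0.756. Genes are not independent replicates, and sums of few cells correlate less, so these values are descriptions. Sums of one library share its free RNA.

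**Figure D3:**
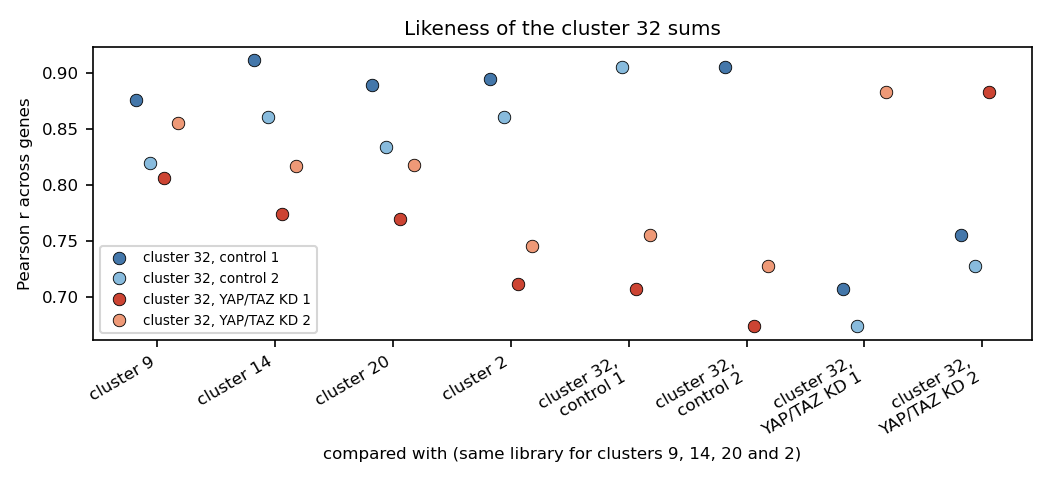
Pearson correlation across 8625 genes of log2(CPM + 10) between the cluster 32 sum of each library (colours) and the clusters named on the x axis. Control points lie at 0.911 and 0.861 for cluster 14, and control against knockdown points for cluster 32 lie at or below 0.756.

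The nearest neighbours of single cells also set control and knockdown cells of the cluster apart, less so in knockdown library 2. Among 9677 epithelial cells in 30 principal components, 74.1% and 76.5% of the 15 nearest neighbours of control cells of cluster 32 were control cells of that cluster, and 2.03% and 2.13% were its knockdown cells. For knockdown library 1, 92.4% were knockdown cells of the cluster and none its control cells. For knockdown library 2 the shares were 69.2% and 7.62%, with 16.5% in cluster 9. Outside cluster 32, control cells had most neighbours in cluster 2 (8.62% and 5.87%), then in cluster 9 (6.34% and 5.60%) and cluster 20 (4.07% and 5.33%, deposited as cycling AT2). Only 2.44% and 2.13% lay in cluster 14, so the neighbours did not rank the other clusters as the sums did. All neighbours of the other group together made up 2.11%, 2.40%, 0.317% and 15.1% for the 4 libraries. For cells of cluster 9 they made up 23.2%, 40.1%, 18.8% and 18.6% in the same order. In knockdown library 2 the clusters thus stood near each other in this share.

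**Figure D4:**
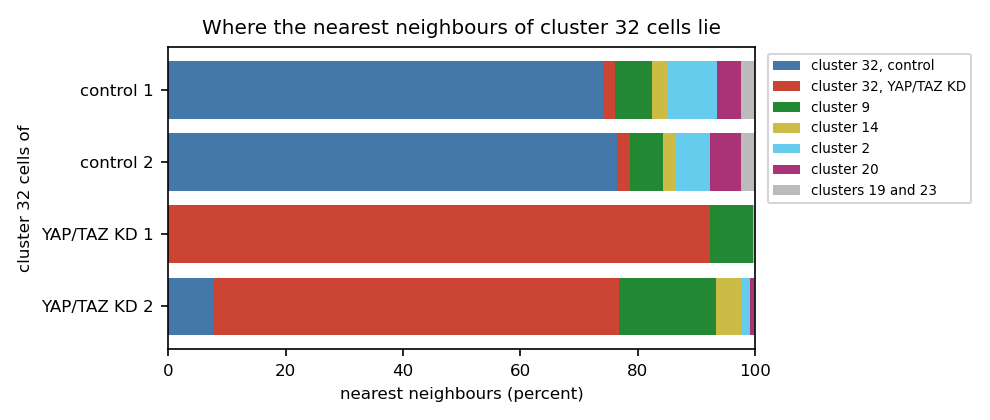
Share of the 15 nearest neighbours (x, percent) of the cluster 32 cells of each library (bars) that lie in each cluster (colours), in 30 principal components of 9677 epithelial cells. Blue (control cells of cluster 32) fills 74.1% and 76.5% of the control bars, and red (its knockdown cells) 92.4% and 69.2% of the knockdown bars.

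The cluster's share of the epithelial cells did not differ by group beyond the libraries' spread. It was 2.82% and 1.06% in the controls and 0.689% and 3.07% in the knockdowns, with a mean of 1.94 ± 1.25% against 1.88 ± 1.68% (SD, n = 2 libraries each; exact permutation test, two-sided p = 1, where 0.333 is the smallest p the design allows). As control and knockdown cells carried different genes, the share does not count one kind of cell.

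Knockdown and control libraries were then compared within the cluster by edgeR's quasi-likelihood test on the sums, with p-values adjusted by Benjamini-Hochberg over all 6001 genes tested. In cluster 32, 682 genes rose (11.4% of those tested) and 658 fell (11%) at an adjusted p under 0.05, and 22.3% changed in either direction. In cluster 9, 48 of 10737 genes rose (0.447%) and 51 fell (0.475%), 0.922% in all. In cluster 14, 28 of 10584 rose (0.265%) and 26 fell (0.246%), 0.51% in all. These 2 counts moved with the fit: 99 became 400 with the replicate block and 40 to 391 with 1 library left out in cluster 9, and 54 became 282 and 15 to 140 in cluster 14. The lowest counts came without control library 1. In cluster 32 the block gave 1295. Of the 1340 changes in cluster 32, 146 were at least 10-fold by the fit. A change here is one between the cells that carry this cluster number, and a change within cells cannot be told apart from other cells having taken the same number. The balance of directions depended on the scaling. The median change of all genes was 0.01 (log2) with TMM scaling and -0.33 when sums were scaled by their totals, a shift of -0.34, and rises made up 50.9% of the changes with the first and 24.4% with the second. Genes named below as risen or fallen kept their direction under both scalings. The count of changes was 641 with DESeq2 (345 rises and 296 falls) and 680 without control library 1. It was 842 with sums thinned to the depth of the smallest library.

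Several of the largest rises were of genes with no UMI in control cells. These genes and the largest falls were picked by this test, and several of the rises had already been named for their knockdown levels, so their sizes are descriptions. Genes with 0 or 1 control UMI passed the filter on low counts through their knockdown counts alone. A rise was thus built into passing, and their adjusted p-values are no support. As control counts were 0, Pcp4 was at least 2159-fold higher, Tafa2 at least 328-fold, Kcnk3 at least 266-fold and Fam135b at least 52.6-fold, taking 3 UMIs over the control group as the floor (edgeR adjusted p = 2.23e-08, 1.77e-06, 3.92e-07 and 7.56e-06). On the same floor the somatostatin receptor Sstr2 was at least 27.6-fold higher, the phosphatase Dusp2 23.2-fold, the Wnt inhibitor Dkk1 22.8-fold, C2cd4b 21.0-fold, Npl 17.3-fold, the apelin receptor Aplnr 14.7-fold and the cannabinoid receptor Cnr1 13.6-fold. With 1 UMI in the controls, Ccl20 stood 1087-fold higher (95% counting interval 195 to 42996), Fcer2a 375-fold (66.9 to 14854) and Apba1 214-fold (38.0 to 8494).

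Other rises began from a few or more control UMIs. Where control sums were low, as for Cdh2, Pmp22, Retnla and A2ml1, genes passed the filter on low counts through their knockdown counts. This favoured a rise, so the adjusted p-values of these genes are no support. Cdh2 rose from 6.76 and 4.76 CPM (4 and 1 UMIs) to 767 and 465 CPM, a log2 fold change of 6.85 ± 0.45 (SE, edgeR adjusted p = 8.6e-07). The size of its rise thus rests on few control UMIs. Pmp22 rose from 11.8 and 23.8 to 1923 and 1014 CPM (6.84 ± 0.47, adjusted p = 8.88e-07) and Igfbp5 from 345 and 461 to 3402 and 2088 CPM (3.10 ± 0.31, adjusted p = 2.73e-05). The groups did not overlap for these 3 genes. Id4, an inhibitor of helix-loop-helix factors, rose by 5.50 ± 0.49 (adjusted p = 7.59e-06), Oit1 by 4.30 ± 0.32 (adjusted p = 1.77e-06) and Smim31 by 4.65 ± 0.35 (adjusted p = 2.06e-06). Retnla rose from 16.9 and 9.51 to 274 and 3497 CPM (7.30 ± 1.00, adjusted p = 0.000272), with the 2 knockdown libraries far apart. A2ml1, a protease inhibitor of the macroglobulin family, read 6.76 and 147 CPM in the control libraries, against 381 and 419.7 CPM with the knockdown, a rise that DESeq2 did not call (adjusted p = 0.333 against 0.00437).

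Several of the largest falls were of genes with no UMI in knockdown cells. These, and those below with 1 UMI left, passed the filter on low counts through their control counts alone. A fall was thus built into passing, and their adjusted p-values are no support. The neural adhesion gene Ntm was at least 29.3-fold lower, the heparan sulfate sulfotransferase Hs6st2 23.6-fold, Krt5 21.5-fold, the airway protease Tmprss11d 20.2-fold, the uroplakin Upk1b 15.1-fold, the laminin chain Lama3 14.8-fold, Anxa8 11.8-fold and Col25a1 10.3-fold, with 3 UMIs over the knockdown group as the floor (edgeR adjusted p from 0.000153 to 0.00253). Mesothelin (Msln) went from 213 and 485 to 0 and 2.06 CPM, 207-fold lower with 1 UMI left (95% counting interval 36.7 to 8201). The other 3 mesothelial markers were too low to be tested. Other falls with 1 UMI left were those of Col4a3, Fermt1, Cdc42ep3, the YAP-binding angiomotin Amot and the transcription factor gene Pax9, 47.1-fold to 64.4-fold.

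The genes that led the control cells had been picked for their control levels, so their knockdown levels are given as a description with no test. Reg3g stood at 0 and 440.2 CPM in the knockdown libraries and Ltf at 0 and 311 CPM. Adam28, Cbr2, Pigr and Aqp4 were likewise at 0 in knockdown library 1, and all 6 stood between 43.2 and 440.2 CPM in library 2. Few cells of knockdown library 2 carried such levels. In it, 1 cell held 176 of the 214 Reg3g UMIs and 1 cell 109 of the 111 Agr2 UMIs. Its 5 highest cells held 98.0% of the Ltf and 98.6% of the Muc5b UMIs. Agr2 and Muc5b did not pass (edgeR adjusted p = 0.806 and 0.138). Scgb1a1 passed in the other direction (4.42 ± 1.19, adjusted p = 0.018), on the 5 cells of knockdown library 2 named above. Without that library its change was -1.0 (adjusted p = 0.111). The call was also lost with the replicate block (adjusted p = 0.202), limma voom (0.184) and DESeq2 (0.204). Of the 14 airway secretory markers, 10 were tested, Scgb1a1 rose, Bpifb1, Reg3g and Gabrp fell and 6 did not pass. The median was -1.25, and over all genes 11.4% rose and 11% fell. Reg3g had been picked for its control level, so its call is a description. DESeq2 called none of the 3 falls (0.344 to 0.64). Bpifb1 was also lost with the replicate block (0.0611) and without control library 1 (0.663), and Gabrp without control library 2 (0.119).

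YAP/TAZ target genes fell in the epithelial cells of cluster 32, whereas the labels place the knockdown in PDGFRα+ cells. Of 13 targets listed, 11 were tested, 10 fell and none rose, with a median log2 change of -2.15, beside 11% of all genes falling and a median of 0.01. Ankrd1, Ccn2, F3 and Nt5e passed the filter on low counts through their control counts, which favoured falls. The count of falls is thus a description, and the adjusted p-values of these genes within cluster 32 are no support. The matricellular gene Ccn2, known as a direct target, read 389 and 380.5 CPM in the control libraries, against 16.6 and 43.2 CPM with the knockdown, so that both controls lay far above both knockdowns (-3.20 ± 0.34, edgeR adjusted p = 4.22e-05). Its relative Ccn1 went from 910.5 and 709 to 37.3 and 185 CPM (-2.43 ± 0.44, adjusted p = 0.00173). Tissue factor (F3) went from 427 and 518 to 24.9 and 90.5 CPM (-2.53 ± 0.37, adjusted p = 0.000418), and Nt5e, the ectonucleotidase CD73, from 269 and 252 to 16.6 and 39.1 CPM (-2.76 ± 0.35, adjusted p = 0.000153).

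Ankrd1, a cardiac ankyrin repeat protein and direct target, was at 0 in both knockdown libraries, at least 8.76-fold lower than its 38.9 and 28.5 CPM in the controls. Tgfb2, a TGF-β ligand, fell by 1.88, Crim1 by 1.92, and the kinase Lats2, the phosphatase Ptpn14 and the angiomotin-like Amotl2, which restrain YAP, by 2.15, 1.28 and 1.24 on the log2 scale. Arhgef17 was at 47.3 and 52.3 CPM in the control libraries, against 24.9 and 32.9 CPM with the knockdown (adjusted p = 0.516). DESeq2 did not call 6 of these 10 falls (Ccn1, Amotl2, Crim1, Lats2, Ptpn14 and Tgfb2, adjusted p from 0.0687 to 0.16). Without control library 1 the calls of Amotl2, Crim1, Lats2, Ptpn14 and Tgfb2 were lost (adjusted p from 0.0811 to 0.37). Lats2 and Ptpn14 were also lost without knockdown library 2 (0.0642 and 0.179) and Amotl2 without knockdown library 1 (0.0666).

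In cluster 14 Ccn2 rose, from 276 and 309 CPM in control cells to 465 and 783 CPM in knockdown cells (1.10 ± 0.23, edgeR adjusted p = 0.0208). In cluster 9 it read 64.4 and 35.7 CPM in control cells, and 62.4 and 50 CPM in knockdown cells. The difference of the knockdown effect between clusters was tested with the library as a block. Ccn2 changed more negatively in cluster 32 than in cluster 9, by -3.34 ± 0.38 (adjusted p = 1e-06), and more negatively than in cluster 14 (adjusted p = 4.28e-09). Of the 13 targets, 8 differed from cluster 9 in this direction and none in the other, beside 3.35% of all 10308 genes tested. Of these 8, the difference was lost for Ccn1, Crim1, F3, Lats2 and Tgfb2 with DESeq2 (adjusted p from 0.0912 to 0.317), and for Ankrd1, Crim1 and Lats2 whichever library was left out (0.0585 to 0.264). F3 also lost it without knockdown library 1 (0.209) and Tgfb2 without control library 1 (0.204). The 13 together summed to 2603 and 2402 CPM in the controls of cluster 32 and 257 and 535 CPM in its knockdowns.

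**Figure D5:**
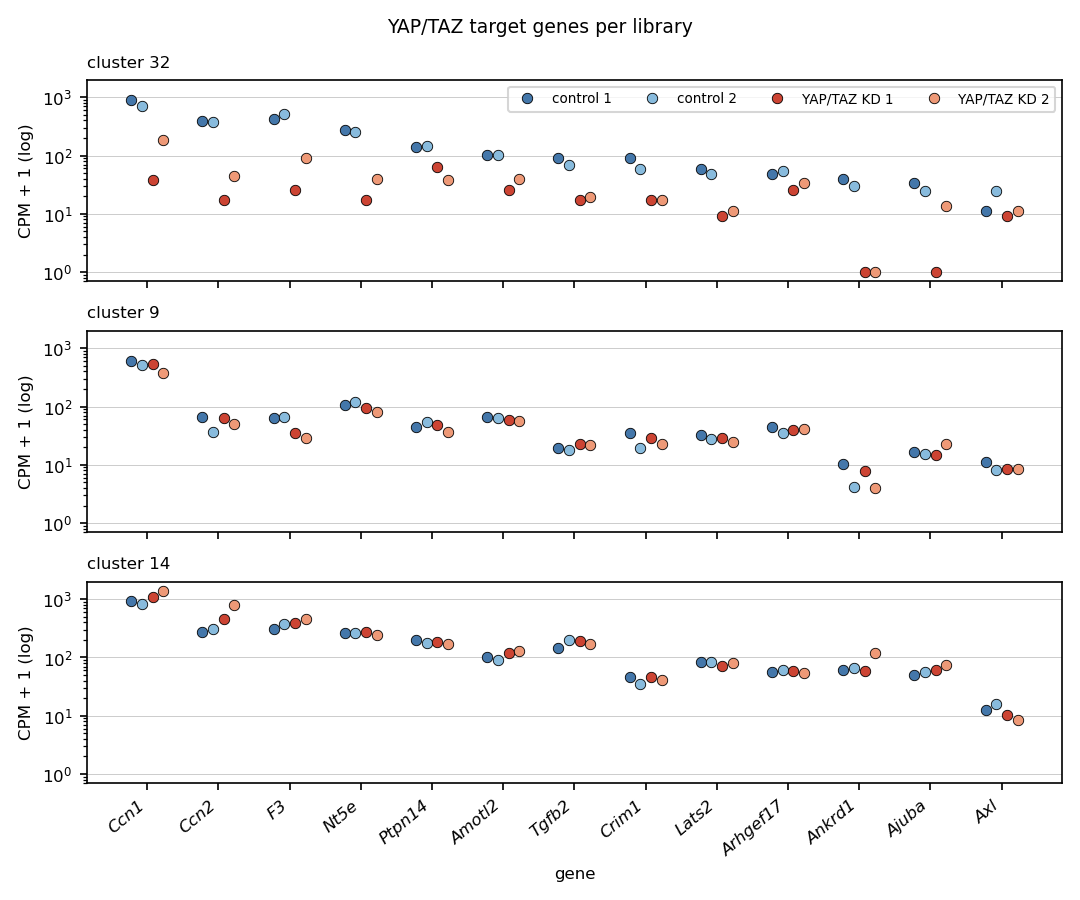
Levels (CPM + 1, logarithmic axis) of 13 YAP/TAZ target genes in the summed cells of clusters 32, 9 and 14, 1 point per library. In cluster 32 both control points of Ccn2, at 389 and 380.5 CPM, lie above both knockdown points, at 16.6 and 43.2 CPM, and in cluster 14 the knockdown points, at 465 and 783 CPM, lie higher than the control points, at 276 and 309 CPM.

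To set the upstream sequences of these genes beside their levels, the 250 bases before the RefSeq start (build GRCm38.p6) of 5 genes are shown, 5′ to 3′ on the gene's strand. Capitals mark matches, on either strand (GGAATG or CATTCC), to the TEAD motif. The AP-1 motif TGANTCA and the forkhead motif TGTTTAC, searched on both strands, had no match in these 5. Pcp4 and Ccl20 lead the knockdown cells, Scgb3a1 is an airway marker whose levels overlapped between the groups, and Ccn1 and Ankrd1 are targets that fell.
Pcp4 (chr16:96467356-96467605, plus strand): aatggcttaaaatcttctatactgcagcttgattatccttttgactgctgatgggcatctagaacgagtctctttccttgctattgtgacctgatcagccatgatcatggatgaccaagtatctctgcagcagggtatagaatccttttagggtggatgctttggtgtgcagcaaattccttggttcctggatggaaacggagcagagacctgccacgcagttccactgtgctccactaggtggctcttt
Ccl20 (chr1:83116516-83116765, plus strand): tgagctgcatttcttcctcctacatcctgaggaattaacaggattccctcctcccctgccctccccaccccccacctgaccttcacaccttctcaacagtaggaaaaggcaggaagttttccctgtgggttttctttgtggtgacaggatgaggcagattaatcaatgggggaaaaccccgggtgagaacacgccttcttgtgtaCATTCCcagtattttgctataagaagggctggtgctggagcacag
Scgb3a1 (chr11:49663345-49663594, plus strand): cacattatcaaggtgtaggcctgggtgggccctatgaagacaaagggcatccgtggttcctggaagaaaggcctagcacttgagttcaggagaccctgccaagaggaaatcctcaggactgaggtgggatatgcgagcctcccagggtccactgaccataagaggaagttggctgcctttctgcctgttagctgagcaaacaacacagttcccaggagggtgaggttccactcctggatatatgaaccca
Ccn1 (chr3:145649986-145650235, minus strand): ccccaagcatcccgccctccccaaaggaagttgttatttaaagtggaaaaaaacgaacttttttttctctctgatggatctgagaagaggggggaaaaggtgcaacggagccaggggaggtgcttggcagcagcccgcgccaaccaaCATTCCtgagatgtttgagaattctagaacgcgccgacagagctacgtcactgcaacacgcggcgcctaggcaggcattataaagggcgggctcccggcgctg
Ankrd1 (chr19:36119845-36120094, minus strand): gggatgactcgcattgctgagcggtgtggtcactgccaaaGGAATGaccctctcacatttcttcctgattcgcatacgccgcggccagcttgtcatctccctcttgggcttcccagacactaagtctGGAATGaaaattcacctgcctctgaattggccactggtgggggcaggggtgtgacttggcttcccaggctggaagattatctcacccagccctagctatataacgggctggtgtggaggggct
The TEAD motif stood in 7 of the 11 targets with a RefSeq entry (63.6%: Ajuba, Amotl2, Ankrd1, Axl, Ccn1, Crim1 and Ptpn14) and in 12.6% of 27025 promoters of the same length. It also stood 45 bases before the start of Ccl20, which rose, and not in the window of Pcp4 or Scgb3a1. The forkhead motif stood in 2 of the 11 targets (18.2%: Ajuba and Axl) and 3.12% of all promoters, and the AP-1 motif in 1 of the 11 (9.09%: F3) and 6.87%. A match is a run of letters, not a bound site.

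Epithelial identity genes moved in both directions. Over all 6001 genes tested, 11.4% rose and 11% fell, the shares to set beside this list and those of the next paragraph. Among 15 AT2 markers, all tested, 5 rose (Sftpa1, Sftpb, Lamp3, Cxcl15 and S100g) and 1 fell (Hc), with a median of 0.58. Sftpa1, a surfactant collectin, read 142 and 105 CPM in the control libraries, against 895 and 745 CPM with the knockdown (3.00 ± 0.29, edgeR adjusted p = 1.51e-05). Its rise exceeded that of cluster 9 by 1.92 ± 0.36 (adjusted p = 0.000764, and 0.161 with DESeq2). The chemokine Cxcl15 of the lung epithelium rose from 672 and 842 to 1459 and 2107 CPM, and S100g rose on both knockdown libraries but not without library 2 (adjusted p = 0.159). Lamp3 lost its call with DESeq2 and without either of control library 2 and knockdown library 2 (0.0577 to 0.27). Hc lost its call with DESeq2 (0.118), without control library 2 (0.0563) and without knockdown library 2 (0.114). Sftpc did not pass (0.15 ± 0.22, adjusted p = 0.664).

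Of 14 AT1 markers, 8 were tested, 4 fell (Ager, Akap5, Col4a3 and Col4a4) and 1 rose (Clic5), with a median of -1.44. Ager and Akap5 lost their calls without control library 1 (both 0.0562), and Clic5 under 8 of 15 alternatives. Of 12 transitional markers, all tested, 6 fell (Krt19, Krt7, Cldn4, Sfn, Itgb6 and Plaur) and none rose, with a median of -0.74. Krt7, Cldn4, Sfn and Plaur each lost the call when 1 library was left out (0.0805 to 0.303). Itgb6 fell furthest, from 468 and 466 to 16.6 and 32.9 CPM (-3.78 ± 0.32, edgeR adjusted p = 6.41e-06). It passed the filter on low counts through its control counts, which favoured a fall. This p-value is thus no support, and the count of falls in the transitional list is a description. Itgb6 also fell more than in cluster 9, by -3.70 ± 0.36 (adjusted p = 7.47e-08). Krt19 went from 598 and 908 to 141 and 274 CPM (adjusted p = 0.00573) and Krt8, at 1145 and 1369.8 against 572 and 675 CPM, did not pass (adjusted p = 0.0739). Of 7 basal markers, 5 passed the filter on low counts, and did so through their control counts, so a fall was built into passing and their calls are not counted. The list summed to 0 CPM in knockdown library 1 and 22.6 CPM in library 2, and Trp63, the master regulator of basal cells, stood at 0 and 10.3 CPM. No tested basal marker differed in its change from cluster 9.

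Among 20 lung epithelial transcription factors, 13 were tested, 3 rose and 3 fell, with a median of -0.01. Over all genes, 11.4% rose and 11% fell. Gata6, an endodermal factor of lung development, rose from 40.5 and 33.3 to 219.6 and 167 CPM (2.61 ± 0.32, edgeR adjusted p = 0.000135). Klf5 fell from 365 and 333 to 62.2 and 101 CPM (-1.72 ± 0.28, adjusted p = 0.000893) and Foxp2 from 382 and 185 to 37.3 and 53.5 CPM (adjusted p = 0.00087). Both groups were apart for these 3 genes, and their changes differed from cluster 9 (adjusted p = 2.84e-05, 0.000212 and 0.00109, the last 0.117 with DESeq2 and 0.113 without control library 1). The epithelial factor Grhl2 fell, and Foxa2 and Tfcp2l1 rose, at adjusted p = 0.0319, 0.0183 and 0.0104, and each lost its call without control library 1 (0.0827, 0.115 and 0.109).

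Among 20 mucosal defence genes, 14 were tested, 4 rose and 6 fell. The median was -0.15, and over all genes 11.4% rose and 11% fell. Ltf, Reg3g and Pigr, among the falls, had been picked for their control levels. Ccl20, among the rises, had been picked for its knockdown levels, so the calls of these genes are descriptions. The neutrophil chemokine Cxcl1 rose from 27.0 and 28.5 to 245 and 220.1 CPM (3.37 ± 0.32, edgeR adjusted p = 1.5e-05) and Cxcl2 from 5.07 and 9.51 to 195 and 65.8 CPM (4.49 ± 0.67, adjusted p = 0.000498). Both passed the filter on low counts through their knockdown counts, which favoured a rise, so these p-values are no support. Lysozyme 2 (Lyz2) rose from 113 and 85.6 to 215 and 204 CPM. The peptidoglycan recognition protein Pglyrp1 fell from 329 and 509 to 20.7 and 55.5 CPM (-2.94 ± 0.37, adjusted p = 0.00014). It passed the filter through its control counts, which favoured a fall, so its p-value is no support. Wfdc2 and Cxcl17 fell with adjusted p = 0.0484 and 0.0293, neither of them called by DESeq2 (0.3 and 0.518). The counts of rises and falls in this list are thus descriptions.

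Of 18 genes of claudins and ion transport, 10 were tested, 6 fell (Cldn4, Cldn7, Slc12a2, Ano1, Aqp3 and Aqp4) and none rose, with a median of -0.91. Over all genes, 11.4% rose and 11% fell, the shares to set beside every list of this paragraph. Aqp4 had been picked for its control level, so its call is a description. Leaving out 1 library ended the calls of Cldn4, Cldn7, Slc12a2 and Aqp3 (adjusted p from 0.0527 to 0.303). The calcium-activated chloride channel Ano1 went from 297 and 404 to 16.6 and 37.0 CPM (-3.21 ± 0.35, edgeR adjusted p = 5.38e-05). It passed the filter on low counts through its control counts, which favoured a fall. Its p-value is thus no support, and the count of falls in this list is a description. Of 18 genes of xenobiotic and aldehyde metabolism, 11 were tested, 3 rose and 3 fell. Cbr2, among the falls, had also been picked for its control level. Glutathione transferase Gsto1 fell from 618 and 689.6 to 58.0 and 111 CPM (adjusted p = 0.0001), and Gstm1 rose from 35.5 and 28.5 to 169.9 and 381 CPM (adjusted p = 0.000102). Of 7 MHC class II genes, 5 were tested and Cd74 and H2-DMb1 rose (adjusted p = 0.00678 and 0.00431, the first 0.0592 without control library 2). Of 15 Wnt and beta-catenin targets, 2 were tested and Znrf3 fell, the other 13 being too low, and of 12 Notch genes 3 were tested and Jag1 and Hes1 rose. Of 12 cell cycle genes, 5 were tested, Pcna rose and Mki67 fell. Pcna lost its call under 12 of 15 alternatives, the replicate block (0.071) among them. Mki67 lost it with DESeq2 (0.232), limma voom (0.0653), the replicate block (0.061) and without knockdown library 1 (0.0896) or 2 (0.129). Znrf3 and Hes1 were not called by DESeq2 (0.204 and 0.182) nor without control library 1 (0.055 and 0.252) or knockdown library 2 (0.163 and 0.62). Znrf3 was also lost without control library 2 (0.193), and Jag1 without control library 1 (0.0852). Of 10 immediate early and heat shock genes, 8 were tested, Junb and Ier2 rose and Jun and Atf3 fell. Ier2 and Atf3 were not called by DESeq2 (0.142 and 0.0823). Without control library 1, Ier2, Jun and Atf3 lost their calls (0.0618, 0.162 and 0.16), as they did without control library 2 (0.237, 0.057 and 0.0697). Ier2 was also lost without knockdown library 2 (0.0834) and Atf3 without knockdown library 1 (0.0593). Of 8 squamous or hillock genes, 2 were tested and Sprr1a rose, though not without knockdown library 2 (adjusted p = 0.261). None of the tested members of the fibroblast (5), smooth muscle (2), tuft (1) and gastric or gut (1) lists passed, and no neuroendocrine gene was tested.

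Across all genes tested in both clusters, the knockdown effect in cluster 32 differed from that in cluster 9 for 798 of 10308 genes (7.74%), higher in 453 (4.39%) and lower in 345 (3.35%), and from that in cluster 14 for 774 of 10537 (7.35%), higher in 366 (3.47%) and lower in 408 (3.87%). With sums scaled by their totals, higher differences made up 28.1% of those from cluster 9 (56.8% with TMM) and 23% of those from cluster 14 (47.3% with TMM). The clusters share their libraries.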

How the data were processed

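RNA was measured with a 10x Multiome kit (RNA and chromatin from the same cells) in 4 libraries. The deposited matrix holds UMI counts of 32285 genes in 45936 cells, and the deposited cell table gives the authors' clusters, classes, mitochondrial percent and, as a ratio, doublet enrichment. The sums of all 45936 cells in the matrix equal the deposited UMIs per cell. The genome build is GRCm38 (mm10), per the submitters' processing notes, and no aligner or counter is named (not given in the sources used here). No deposited cell had over 35.0% mitochondrial UMIs or under 533 UMIs. Another 51 deposited columns were not used.

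Counts were summed by cluster and library. Knockdown and control sums (2 libraries each) were compared with edgeR 4.0.16 (quasi-likelihood test, TMM scaling, filterByExpr, Benjamini-Hochberg adjustment, threshold 0.05) within clusters 32, 9 and 14. The difference of effects between clusters was the interaction term of 1 fit over both clusters, blocked by library. DESeq2 1.42.0 and limma 3.58.1 (voom) were alternatives. The scripts were tested on simulated data.

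Shares of cells with a UMI were computed after thinning each cell to 1000 UMIs. No doublet caller was run. Cells in the top 10% of the deposited doublet enrichment were left out in 1 alternative, which could not screen the 8 and 9 knockdown cells of cluster 32 with no such value (no control cell lacked one). Intervals cover counting error only.

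The text names the 15 largest changes in each direction that passed, did not overlap between groups and reached 50 CPM, the 15 genes that stood highest over clusters 9 and 14 in control and in knockdown cells at 100 CPM or more, the 10 largest differences from cluster 9 in each direction, and members of 26 gene lists. Models named Gm or Rik are not named. The members and lists were chosen with earlier results of these data known. Gene positions are from GENCODE and promoters from RefSeq (GRCm38.p6). A gene's reads and those of an overlapping or antisense gene cannot be told apart, since whether counting used strand was not given in the sources used here.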

Additional observations from a re-analysis of the deposited data

Results flagged for a closer look

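For 19 named genes the knockdown effect in cluster 32 differed from that in cluster 9 by the interaction test (edgeR adjusted p under 0.05). The differences below are on the log2 scale. Where a group had no UMI their size depends on the prior count and is no bound.

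The knockdown effect was higher in cluster 32 for Tafa2 (13.44), the somatostatin receptor Sstr2 (10.53), lysozyme 1 (Lyz1, 10.07), the chemokine Ccl20 (9.52), Npl (9.08) and C2cd4b (7.48). It was also higher for Pmp22 (7.47), N-cadherin (Cdh2, 7.47), the IgE receptor Fcer2a (7.39) and the adenylate kinase Ak4 (7.06). Lyz1 rested on knockdown library 2, and its call was lost without it (adjusted p = 1). Without control library 2 the calls of Ccl20 (adjusted p = 0.086), Fcer2a (1), Sstr2 (0.0574) and Npl (0.399) were lost, and without control library 1 that of C2cd4b (0.243). DESeq2 did not call Fcer2a (0.0992), Sstr2 (0.0984) and Lyz1 (0.722).

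It was lower in cluster 32 for the adhesion gene Ntm (-9.88), the sulfotransferase Hs6st2 (-9.54), the laminin chain Lama3 (-9.44) and Anxa8 (-8.56). It was also lower for mesothelin (Msln, -5.83), the myosin Myo3b (-5.67), Cdc42ep3 (-5.30) and the collagen IV chains Col4a3 (-5.23) and Col4a6 (-4.86). The call of Col4a6 was lost whichever library was left out (0.0588 to 0.286), and with the replicate block (0.0741). That of Anxa8 was lost without control library 1 (0.0835), control library 2 (0.0687) or knockdown library 2 (0.18).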

How the results depend on the processing

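The count of changed genes in cluster 32 (1340) was 641 with DESeq2, which shared 637 of them, and 842 with sums thinned to the smallest library. It ranged from 680 to 1494 when 1 library was left out, the lowest without control library 1. In cluster 9 (99) it was 32 with DESeq2, 400 with the replicate block and 40 to 391 with 1 library left out. In cluster 14 (54) it was 146 with no low-count filter, 118 with scaling by library totals only, 282 with the replicate block and 15 to 140 with 1 library left out. The difference from cluster 9 (798) gave 362 with DESeq2 and 422 to 765 with 1 library left out, and that from cluster 14 (774) gave 363 and 463 to 701. Where a library was left out, the lone library of its group was assumed to vary like the others.

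Scaling by library totals only, chosen after seeing the data, changed the share of higher calls from 56.8% to 28.1% for the difference from cluster 9 and from 47.3% to 23% for that from cluster 14. With the replicate block cluster 32 had 1295 changed genes. Same-numbered libraries deviated with correlations of 0.02, 0.14 and 0.16 in clusters 32, 9 and 14, and the labels do not say that the numbers pair them.

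With an offset of 1 CPM in place of 10, the mean correlation with clusters 9 and 14 was 0.802 and 0.845 for control sums and 0.780 and 0.736 for knockdown sums. Cluster 9 stayed below cluster 14 for control sums and above it for knockdown sums, but for control library 2 cluster 2 passed cluster 14 (0.806 against 0.804). The difference in the share of epithelial cells ranged from -1.25 to 1.12 percentage points with 1 library left out.

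Of 125 genes tested here one by one in cluster 32, 117 were called, 70 of them under every alternative run. For the difference from cluster 9, 37 of 39 were called, 19 under every alternative. The rules for naming genes asked in part for a call in these fits. The counts called were thus largely set by the choice, beside 22.3% of all genes called in cluster 32. Bpifa1 reversed with limma voom (-1.07) and the replicate block (-0.0059), with a range of -10.28 to 2.93 with 1 library left out. The ranges with 1 library left out were -9.04 to 0.50 for Agr2, -1.0 to 6.57 for Scgb1a1, -8.40 to 0.027 for Cyp2f2 and -0.17 to 0.42 for Sftpc, which was -0.20 with scaling by library totals only. The cause was not tested. The number of cells limits the shares: 0 of 21 or 25 allows up to 14.3% or 12%, taking 3 cells as the limit.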
